A study of Mus musculus with 23 samples.

Results

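The 9 genes described here encode enzymes and a transporter of ferroptosis and glutathione metabolism: Gpx4, Aifm2, Acsl4, Lpcat3, Slc7a11, Gclc, Gclm, Gss and Gsr. They were found by gene symbol, 1 row each, among the 18876 genes of a count table, and all 9 were among the 18759 genes with enough counts to be tested. The RNA came from CD11b+ cells isolated magnetically from the bilateral hippocampus of female mice and was sequenced in bulk after poly(A) selection. All mice were Slc11a2 fl/fl and Cx3cr1 Cre-ERT2 +/- on a mixed 129S;C57BL/6J background. They were either hemizygous for the APP/PS1 transgenes, a model of amyloid deposition, or WT littermates.

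Slc11a2KD mice received 4 mg tamoxifen by oral gavage each day for 5 days at 5 to 6 months of age, which activates the Cre in cells with an active Cx3cr1 promoter, that is microglia and related macrophages. Control mice of the same floxed genotype received 200 µL corn oil, so effects of tamoxifen itself and of the deletion cannot be told apart. All mice were between 15 and 18 months old at collection. The groups compared were Control WT (n = 6), Control APP/PS1 (n = 6 of 7 samples), Slc11a2KD WT (n = 5) and Slc11a2KD APP/PS1 (n = 5). Samples are named by group and library number, and the data ask how these genes differ with the APP/PS1 genotype and with knockdown of Slc11a2, the gene of the iron importer DMT1.

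Ferroptosis is a form of cell death in which iron drives the peroxidation of polyunsaturated phospholipids in membranes. Its main brake is the selenoprotein GPX4, which reduces lipid peroxides at the expense of glutathione, a tripeptide that cells build from glutamate, cysteine and glycine. Microglia take up iron and lipid debris around amyloid plaques, and their supply of glutathione and of peroxidation-prone lipids is therefore of interest in this tissue.

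Total counts were between 31128643 and 54872491 per sample. Slc11a2 itself was between 29.9 and 43.7 CPM (counts per 1000000 counts, with library sizes scaled by TMM) in Control WT and between 27.1 and 38.1 in Slc11a2KD WT. It was between 40.0 and 48.2 CPM in Control APP/PS1 and between 37.8 and 75.1 in Slc11a2KD APP/PS1. The log2 fold change of Slc11a2 with knockdown was -0.04 (SE 0.14) in WT and 0.39 (SE 0.14) in APP/PS1, and neither passed the test (edgeR, adjusted p = 1 and 0.205). Between APP/PS1 and WT it was 0.30 (SE 0.14, adjusted p = 0.175) in Control mice and 0.72 (SE 0.15) in Slc11a2KD mice, where it passed (adjusted p = 0.00209). Because the floxed allele removes only some exons, the gene total does not check the knockdown, so directions below follow the sample labels. The study itself reported the knockdown over the targeted exons, by RT-qPCR in isolated microglia and by read coverage in the sequenced libraries. The summed level of 11 microglial markers in the table was between 34690 and 50026 CPM and that of 9 neuronal markers at most 41.8 CPM, while 9 oligodendrocyte markers reached 3653 CPM. In bulk RNA, fewer cells of a type and less RNA per cell cannot be told apart. Library Control APP/PS1 10 was left out. It lay 2.13 SD from its group's mean on the first principal component of all 18865 genes passing the filter over 23 samples, but 0.644 SD on that of the 500 most variable genes, and values with it kept are given where they change a call. Slc11a2KD libraries fell into library numbers 1 to 4 and 18 to 23, and these sets differed in how strongly long and short transcripts were represented, as described with Gpx4 and Acsl4.

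Measured per kilobase of transcript (the exon length of the canonical transcript), the 9 genes covered a wide range of levels. Gpx4 had the highest mean over the 22 samples, 335 CPM per kb, followed by Lpcat3 with 52.2, Gclc with 15.1 and Acsl4 with 12.6. Gsr (8.56), Gss (5.57) and Gclm (3.93) were intermediate, and Slc7a11 (0.53) and Aifm2 (0.46) were the lowest. The ranges of group means of Slc7a11 (0.50 to 0.57) and Aifm2 (0.22 to 0.78) overlapped, as did those of Gclc (11.2 to 18.6) and Acsl4 (9.46 to 13.96), so the order within these pairs was not separated from the differences between groups. On this per-length scale Gpx4 was thus far above Slc7a11 in the same preparations.

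**Figure D1:**
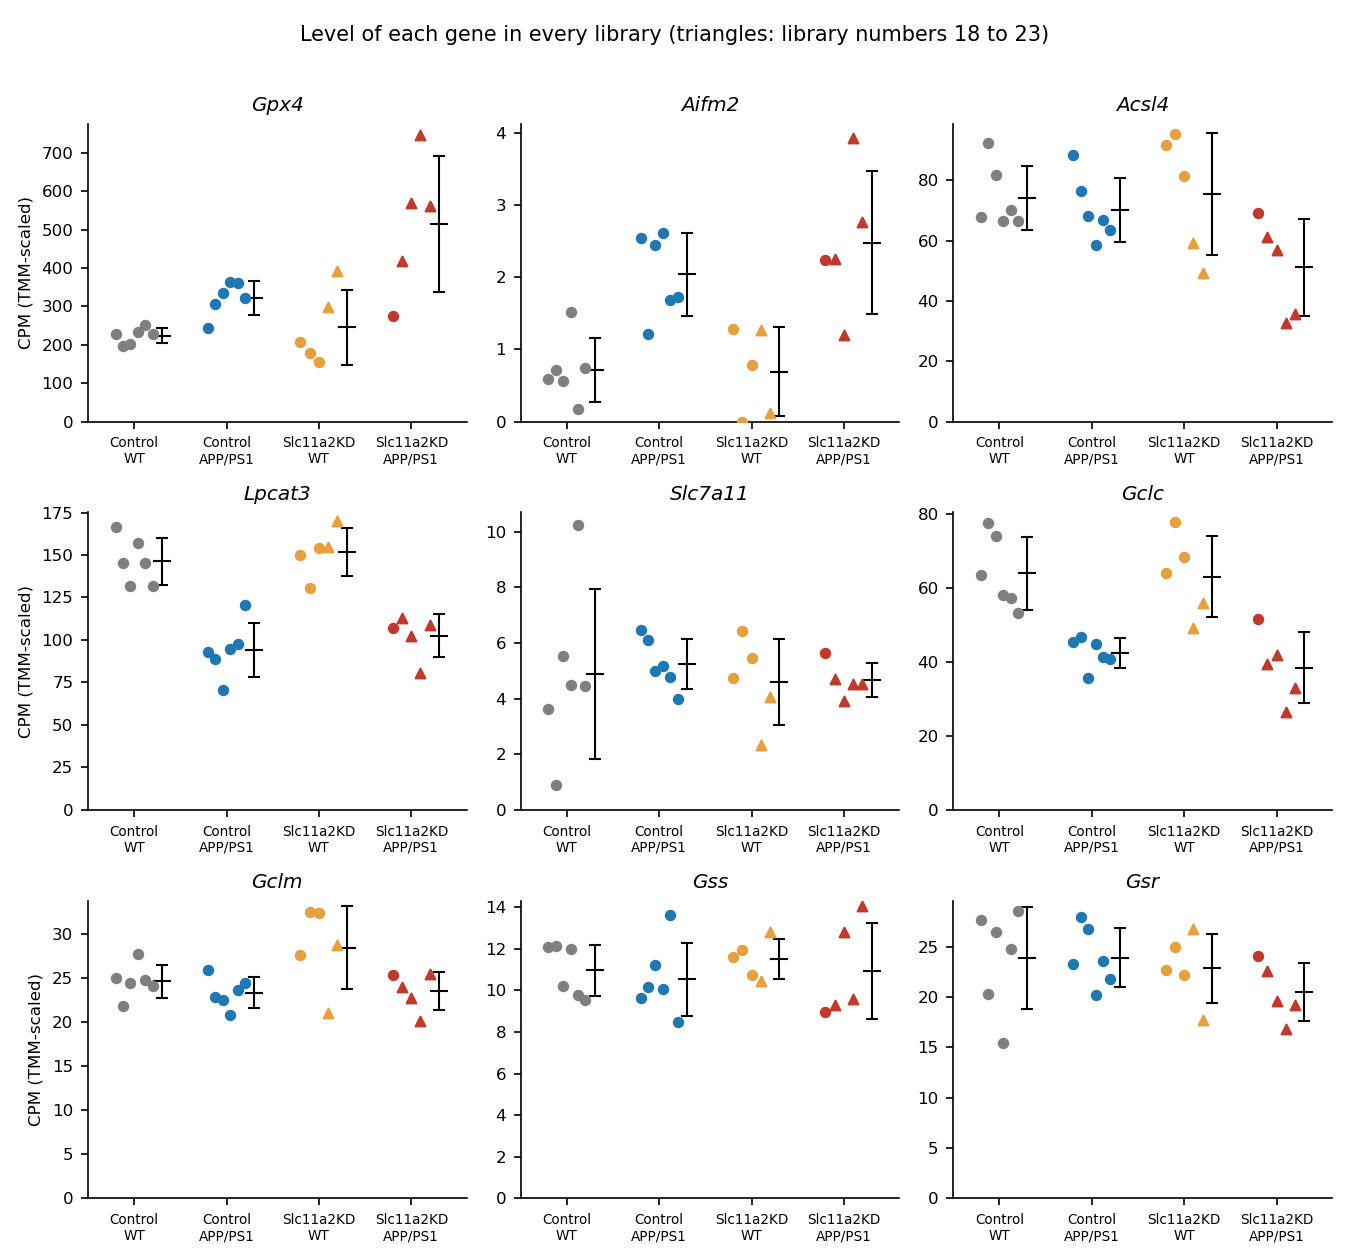
CPM of each gene (vertical axes, starting at 0) in every library of the 4 groups, with the mean and SD of each group in black; triangles are library numbers 18 to 23. Lpcat3 and Gclc were lower in APP/PS1 than in WT groups, while Gpx4 was highest in the Slc11a2KD APP/PS1 libraries 18 to 23.

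In Control mice, 2 of the 9 genes passed the test between APP/PS1 and WT, and both were lower in APP/PS1: Lpcat3 and Gclc. Among all genes tested 4.48% were called lower and 5.99% higher (edgeR quasi-likelihood test, adjusted p under 0.05). In Slc11a2KD mice, Lpcat3 and Gclc were again lower in APP/PS1 and Gpx4 was higher, 3 of 9 genes, where 6.41% of all genes were called lower and 9.77% higher. The median log2 fold change of the 9 genes was -0.06 in Control and -0.16 in Slc11a2KD mice, beside -0.02 and -0.07 over all genes tested. The 2 genotype comparisons share no sample, but each shares a group with the comparisons of knockdown below.

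**Figure D2:**
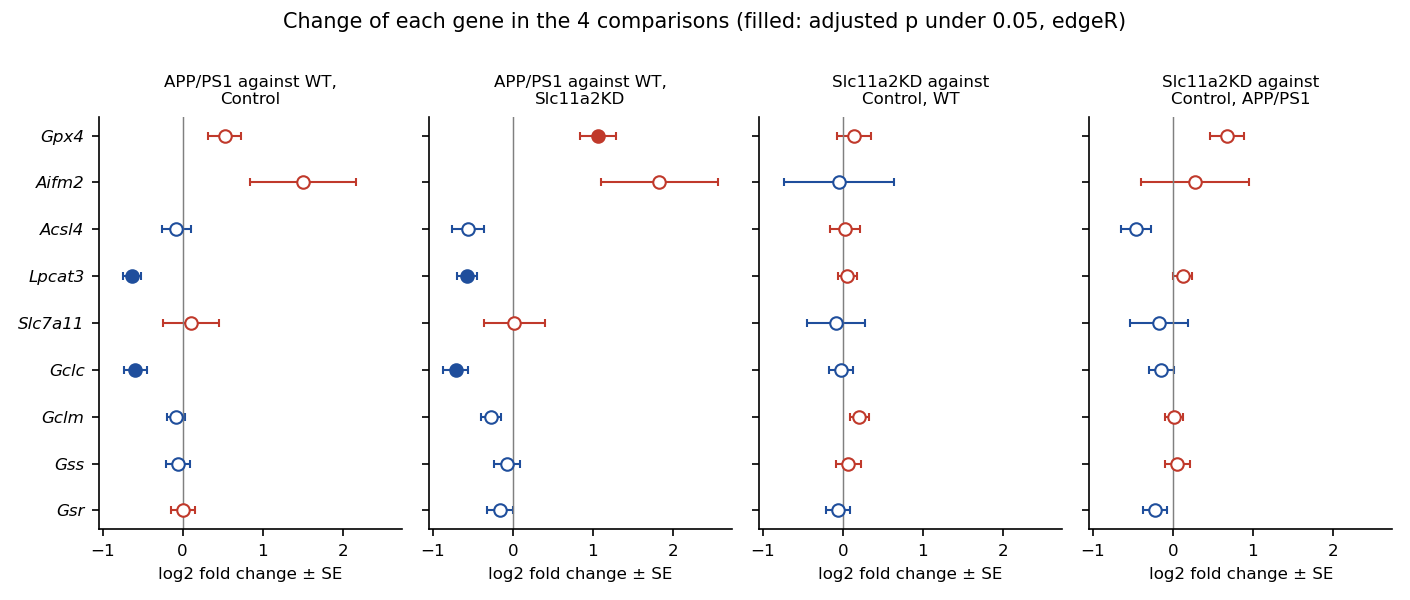
Log2 fold change with its SE (horizontal axes) of the 9 genes in the 4 comparisons, red above and blue below 0; filled points passed an adjusted p of 0.05 (edgeR). Lpcat3 and Gclc passed in both genotype comparisons, Gpx4 in Slc11a2KD mice, and none passed between Slc11a2KD and Control.

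The genes of lipid peroxide defence are Gpx4 and Aifm2. Gpx4 (ENSMUSG00000075706, chr10:79883000-79892273, plus strand, GRCm39) has the shortest canonical transcript of the 9 genes, 959 bases. In Control WT it was 198 CPM at the lowest, 228 at the median and 251 at the highest. In Control APP/PS1 it was 244 CPM at the lowest, 327 at the median and 363 at the highest, so that the lowest APP/PS1 library lay within the WT range. The log2 fold change was 0.52 (SE 0.20), and it did not pass the test over all genes (edgeR, adjusted p = 0.108). With Control APP/PS1 10 kept, a library with 729 CPM of Gpx4 in which short transcripts were over-represented, it was 0.77 (SE 0.24) and passed (adjusted p = 0.0393), and with only the Control groups in the fit it was 0.54 (SE 0.10) and passed (adjusted p = 0.00145). It also passed with limma voom (0.55, adjusted p = 0.00934), with library numbers 18 to 23 as a covariate (0.52, adjusted p = 0.00405) and with the choroid plexus marker level as a covariate (0.67, adjusted p = 0.0239), and in no other alternative.

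In Slc11a2KD WT, Gpx4 was 208, 178, 155, 299 and 391 CPM in libraries 1, 2, 3, 19 and 22. In Slc11a2KD APP/PS1 it was 276, 418, 570, 746 and 562 CPM in libraries 4, 18, 20, 21 and 23. Within each genotype the libraries numbered 18 and above were higher than those numbered 1 to 4, and the WT libraries 19 and 22 overlapped APP/PS1 library 4. The mean was 514 ± 177 (SD, n = 5) in APP/PS1 and 246 ± 97.7 (SD, n = 5) in WT, a log2 fold change of 1.06 (SE 0.23), that is 2.09-fold (edgeR, adjusted p = 0.00242). Among libraries 18 to 23 alone, with 4 APP/PS1 and 2 WT samples, the log2 fold change was 0.73 (SE 0.24) and it did not pass (adjusted p = 0.211). With library numbers 18 to 23 as a covariate it was 0.69 (SE 0.15, adjusted p = 0.00321), and with only the Slc11a2KD groups in the fit it was 1.08 (SE 0.30) and missed the threshold (adjusted p = 0.0522). Whether the change in Slc11a2KD mice was larger than that in Control mice was tested as an interaction, which gave a difference of 0.54 (SE 0.30) on the log2 scale and did not pass (adjusted p = 0.546).

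Aifm2 (ENSMUSG00000020085, chr10:61540677-61577788, plus strand) encodes FSP1, which regenerates ubiquinol as a second, glutathione-independent defence against lipid radicals. It was scarce, with between 0 and 153 counts per library. In Control WT it was 0.18 CPM at the lowest, 0.65 at the median and 1.51 at the highest, and in Control APP/PS1 1.21 at the lowest, 2.09 at the median and 2.61 at the highest. In Slc11a2KD WT it was 1.29, 0, 0.79, 1.27 and 0.12 CPM in libraries 1, 2, 3, 19 and 22. The library with 0 counts allows up to 0.0776 CPM, from 3 counts of its total. In Slc11a2KD APP/PS1 it was 2.23, 2.25, 1.20, 3.92 and 2.76 CPM in libraries 4, 18, 20, 21 and 23. The APP/PS1 values lay above most WT values in both treatments, with 1 WT library inside the APP/PS1 range in Control and 2 in Slc11a2KD. The log2 fold changes of 1.51 (SE 0.66, adjusted p = 0.159) in Control and 1.83 (SE 0.73, adjusted p = 0.0886) in Slc11a2KD mice did not pass in edgeR with all 4 groups in 1 fit. The Control change passed in 1 of 10 alternatives, edgeR with only the Control groups (adjusted p = 0.0333), which called 11.3% of all genes higher. The Slc11a2KD change passed in 2 of 11 alternatives, among them DESeq2 (1.86, adjusted p = 0.0229). DESeq2 called 11.7% of all genes higher and 9.41% lower in APP/PS1 among Slc11a2KD mice, and 6.6% higher and 6.96% lower among Control mice.

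Acsl4 and Lpcat3 supply the lipids that are peroxidised. ACSL4 activates arachidonic and adrenic acid as their CoA esters, and LPCAT3 inserts such fatty acids into lysophospholipids of the membrane. Acsl4 (ENSMUSG00000031278, chrX:141100840-141173789, minus strand) was 66.3 CPM at the lowest, 69.0 at the median and 92.2 at the highest in Control WT. In Control APP/PS1 it was 58.7 CPM at the lowest, 67.4 at the median and 88.3 at the highest. These groups overlapped over nearly their whole range (log2 fold change -0.08, SE 0.18, adjusted p = 0.864 in edgeR).

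In Slc11a2KD WT, Acsl4 was 91.5, 95.3, 81.3, 59.3 and 49.3 CPM in libraries 1, 2, 3, 19 and 22. In Slc11a2KD APP/PS1 it was 69.0, 61.3, 56.7, 32.7 and 35.7 CPM in libraries 4, 18, 20, 21 and 23. The pattern was the reverse of that of Gpx4, with lower values in libraries 18 to 23, and the 2 genotypes overlapped. The log2 fold change between the genotypes was -0.56 (SE 0.20) and fell just short of the threshold (edgeR, adjusted p = 0.0553). It passed in 4 of 12 alternatives at nearly the same size, with DESeq2 (-0.55, adjusted p = 0.0222), with the size factors of DESeq2 in edgeR (-0.55, adjusted p = 0.0458), with at least 10 counts required in every sample (-0.57, adjusted p = 0.0269) and with limma voom (-0.59, adjusted p = 0.0227). Of the 10 fits without 1 library, 3 passed, at -0.69 without Slc11a2KD APP/PS1 4 (adjusted p = 0.0139), -0.63 without Slc11a2KD WT 19 (adjusted p = 0.0387) and -0.68 without Slc11a2KD WT 22 (adjusted p = 0.0126). The other 7 did not, the smallest change being -0.44 without Slc11a2KD APP/PS1 21 (adjusted p = 0.153). Among libraries 18 to 23 alone it was -0.23 (SE 0.27, adjusted p = 0.818).

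Lpcat3 (ENSMUSG00000004270, chr6:124639765-124684440, plus strand) gave the clearest separation of the 9 genes. In Control WT it was 132 CPM at the lowest, 145 at the median and 166 at the highest. In Control APP/PS1 it was 70.3 CPM at the lowest, 93.7 at the median and 120 at the highest, so that every APP/PS1 library lay below every WT library. The log2 fold change was -0.64 (SE 0.11), 0.643-fold (edgeR, adjusted p = 0.000414).

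In Slc11a2KD WT, Lpcat3 was 150, 130, 154, 154 and 170 CPM in libraries 1, 2, 3, 19 and 22, and in Slc11a2KD APP/PS1 it was 107, 113, 102, 80.8 and 109 CPM in libraries 4, 18, 20, 21 and 23. The genotypes again did not overlap, and within each genotype libraries 18 to 23 lay close to the others, unlike for Gpx4 and Acsl4. The log2 fold change was -0.57 (SE 0.12), 0.674-fold (edgeR, adjusted p = 0.00295). Among libraries 18 to 23 alone it was -0.69 (SE 0.18), as large, though with 2 WT libraries it did not pass (adjusted p = 0.109). Of the canonical exons of Lpcat3, 970 of 2364 bases also lie in exons of Emg1 on the opposite strand, and the strand setting of the counting is not given in the sources used here.

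Slc7a11 (ENSMUSG00000027737, chr3:49846975-50398070, minus strand) encodes xCT, the light chain of the exchanger that imports cystine, the precursor of the cysteine in glutathione. It was low, between 0.89 and 10.2 CPM across the 22 libraries, and both of these extremes were Control WT libraries. The group means were 4.87 ± 3.06 CPM in Control WT (SD, n = 6), 5.24 ± 0.90 in Control APP/PS1 (SD, n = 6), 4.60 ± 1.54 in Slc11a2KD WT (SD, n = 5) and 4.66 ± 0.62 in Slc11a2KD APP/PS1 (SD, n = 5). All groups overlapped, and the log2 fold change between genotypes was 0.10 (SE 0.35) in Control and 0.02 (SE 0.38) in Slc11a2KD mice. The Control value rested on single libraries, being 0.46 (edgeR, adjusted p = 0.429) without Control WT 14 and turning to -0.11 (adjusted p = 0.877) without Control WT 8.

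Gclc, Gclm, Gss and Gsr make and recycle glutathione. GCLC is the catalytic and GCLM the modifier subunit of glutamate-cysteine ligase, which carries out the rate-limiting step, glutathione synthetase (GSS) adds the glycine, and glutathione reductase (GSR) restores the reduced form with NADPH. Gclc (ENSMUSG00000032350, chr9:77661797-77701770, plus strand) was 53.2 CPM at the lowest, 60.9 at the median and 77.7 at the highest in Control WT. In Control APP/PS1 it was 35.7 CPM at the lowest, 43.2 at the median and 46.8 at the highest. No APP/PS1 library reached the WT range (log2 fold change -0.59, SE 0.14, 0.664-fold, adjusted p = 0.00848 in edgeR).

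In Slc11a2KD WT, Gclc was 64.1, 78.0, 68.4, 49.4 and 56.0 CPM in libraries 1, 2, 3, 19 and 22. In Slc11a2KD APP/PS1 it was 51.8, 39.4, 42.0, 26.4 and 33.0 CPM in libraries 4, 18, 20, 21 and 23. The overlap came from WT library 19 and APP/PS1 library 4. Within libraries 18 to 23 both WT values were above all 4 APP/PS1 values, and there the log2 fold change was -0.59 (SE 0.22, adjusted p = 0.271). Over all Slc11a2KD samples it was -0.71 (SE 0.16), 0.610-fold (edgeR, adjusted p = 0.0034). With only the Slc11a2KD groups in the fit it was -0.68 (SE 0.19) and missed the threshold (adjusted p = 0.0559).

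Gclm (ENSMUSG00000028124, chr3:122039126-122065061, plus strand), the partner subunit, was 21.8 CPM at the lowest, 24.6 at the median and 27.7 at the highest in Control WT, and 20.8, 23.3 and 25.9 at the same points in Control APP/PS1. The 2 groups covered nearly the same range (log2 fold change -0.08, SE 0.11, adjusted p = 0.757 in edgeR). In Slc11a2KD WT it was 27.7, 32.5, 32.4, 21.02 and 28.8 CPM in libraries 1, 2, 3, 19 and 22, and in Slc11a2KD APP/PS1 25.3, 24.1, 22.7, 20.2 and 25.5 in libraries 4, 18, 20, 21 and 23. Apart from WT library 19, every WT value was above every APP/PS1 value, and the log2 fold change of -0.27 (SE 0.12) did not pass (adjusted p = 0.125). Without WT library 19 it was -0.36 and passed (adjusted p = 0.0343).

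The level of Gclm relative to Gclc in the same library, which does not depend on the scaling of the library, was compared directly. The mean log2 ratio of Gclm to Gclc counts was -1.37 ± 0.29 (SD, n = 6) in Control WT and -0.86 ± 0.17 (SD, n = 6) in Control APP/PS1. It was -1.15 ± 0.13 (SD, n = 5) in Slc11a2KD WT and -0.68 ± 0.29 (SD, n = 5) in Slc11a2KD APP/PS1. The ratio was thus higher in APP/PS1 by 0.50 in Control (two-sided exact permutation test, p = 0.00433) and by 0.47 in Slc11a2KD mice (exact p = 0.0159). In both cases the groups overlapped, and over the 12 ratio tests run the adjusted p was 0.0519 and 0.0952. The same was done for Acsl4 to Gpx4, the lipid-activating enzyme against the peroxidase, whose log2 ratio was lower in APP/PS1 by 0.60 in Control and by 1.65 in Slc11a2KD mice, coded as -0.60 (exact permutation test, adjusted p = 0.0952) and -1.65 (adjusted p = 0.104). This ratio sets a transcript of 5397 bases against one of 959. The values given are not corrected for the balance of long and short transcripts described below, which differed between libraries. In Slc11a2KD WT the log2 ratio of Acsl4 to Gpx4 was -1.18, -0.90 and -0.93 in libraries 1, 2 and 3, and -2.34 and -2.99 in libraries 19 and 22. Between Slc11a2KD and Control the difference of this ratio was -1.12 in APP/PS1 (exact permutation test, p = 0.0433, adjusted p = 0.104) and -0.07 in WT (adjusted p = 0.857), and the groups overlapped in all 4 comparisons. For Slc7a11 to Slc3a2, the heavy chain of the same exchanger, the adjusted p of the 4 comparisons was between 0.37 and 0.857 in the exact permutation test.

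The subunits also differ in the sequence before their start sites, which is shown because Gclc and Gclm are known targets of NRF2, the factor that binds the antioxidant response element. The 150 bases before the annotated start on GRCm39 are given 5′ to 3′ on the plus strand, chr9:77661647-77661796 for Gclc and chr3:122038976-122039125 for Gclm, with capitals for the core motif TGACNNNGC in either orientation.
Gclc: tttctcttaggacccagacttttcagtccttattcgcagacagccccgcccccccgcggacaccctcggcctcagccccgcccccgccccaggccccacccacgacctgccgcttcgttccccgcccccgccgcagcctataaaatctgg
Gclm: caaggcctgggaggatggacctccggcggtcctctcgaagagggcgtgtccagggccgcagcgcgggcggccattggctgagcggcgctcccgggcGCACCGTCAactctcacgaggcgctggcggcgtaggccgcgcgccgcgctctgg
In the window from 250 bases before to 50 after the start, Gclm was the only 1 of the 9 genes with a match, on the minus strand with its first base at -54 from the start. The motif was searched on both strands, and 12.5% of 21757 windows of protein-coding genes held it. A match describes the letters only, and no match says nothing of binding elsewhere.

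Gss (ENSMUSG00000027610, chr2:155405096-155455505, minus strand) was between 8.49 and 14.05 CPM across the 22 libraries and Gsr (ENSMUSG00000031584, chr8:34142551-34188192, plus strand) between 15.5 and 28.5. Neither separated the genotypes. For Gss the log2 fold change was -0.06 (SE 0.15) in Control and -0.07 (SE 0.16) in Slc11a2KD mice, and for Gsr it was 0.00 (SE 0.15) and -0.16 (SE 0.16). Of the canonical exons of Gss, 942 of 1968 bases also lie in exons of Acss2 on the opposite strand, so that its reads may hold some of that gene. Of the 4 glutathione genes, Gclc was the one called between genotypes with all 4 groups in 1 edgeR fit, in both treatments.

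Between Slc11a2KD and Control WT mice, none of the 9 genes passed, and 0 genes of 18759 passed in all (edgeR, smallest adjusted p 0.715). At an unadjusted p under 0.05, 0 of the 9 and 5.92% of all genes were found, and DESeq2 called 0 of the 9 and 0.0533% of all genes. The log2 fold changes of the 9 genes ran from -0.09 (Slc7a11, SE 0.36) to 0.21 (Gclm, SE 0.12).

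Between Slc11a2KD and Control APP/PS1 mice, 0 genes passed in edgeR (smallest adjusted p 0.205), although 20.6% of all genes had an unadjusted p under 0.05, and with them Gpx4 and Acsl4. Gpx4 was 514 ± 177 CPM (SD, n = 5) with knockdown and 321 ± 44.2 (SD, n = 6) in Control, a log2 fold change of 0.68 (SE 0.21, adjusted p = 0.205). Acsl4 was 51.1 ± 16.1 CPM (SD, n = 5) and 70.3 ± 10.6 (SD, n = 6), a log2 fold change of -0.46 (SE 0.19, adjusted p = 0.207). The groups overlapped for both. DESeq2 called 3.09% of all genes, and Gpx4 was the 1 of the 9 among them (0.73, adjusted p = 0.0495). DESeq2 gave no adjusted p to Aifm2, Slc7a11, Gclm, Gss and Gsr in this comparison, so they could not be called. The share of 3.09% is of all 18759 genes, including any without an adjusted p.

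That comparison rested on single libraries. Without Slc11a2KD APP/PS1 4, the library the study set apart in a second analysis, Gpx4 (0.84, SE 0.20, adjusted p = 0.0202) and Acsl4 (-0.59, SE 0.19, adjusted p = 0.0408) both passed in edgeR, as 7.34% of all genes did upward and 9.07% downward. Without Slc11a2KD APP/PS1 21 the change of Gpx4 was 0.49 (SE 0.21, adjusted p = 0.527), and with Control APP/PS1 10 kept it was 0.44 (SE 0.25, adjusted p = 0.595). With library numbers 18 to 23 as a covariate it was -0.16 (SE 0.18, adjusted p = 1), and that of Acsl4 was 0.05 (SE 0.20), both of opposite sign to the values without it. All Control libraries are numbered 5 to 17 and 1 of the 5 Slc11a2KD APP/PS1 libraries, library 4, lies outside 18 to 23. These values therefore rest on that library and on the difference between the numbered sets within the Slc11a2KD groups, and in this comparison library number and knockdown can hardly be told apart. None of the 9 genes passed for the interaction of knockdown and APP/PS1, where 0 genes passed in all, 9.08% had an unadjusted p under 0.05 (0 of the 9) and DESeq2 called 0.133% (0 of the 9).

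Gpx4, Acsl4 and Gclc varied together within groups. After subtraction of each group's mean, Pearson's r of log2 CPM over the 22 libraries was -0.86 between Gpx4 and Acsl4, -0.76 between Gpx4 and Gclc and 0.83 between Acsl4 and Gclc. These values are descriptions across libraries, which differ in depth and in their balance of long and short transcripts. Lpcat3 was unrelated to Gpx4 and Acsl4 on this measure, with r of -0.04 to each. The genes most like Gpx4 in the same measure among 11888 genes were Spcs1 (r = 0.99), Ndufa2 (0.98) and Cox4i1 (0.98). Those most like Acsl4 were Cltc (0.95), Nsd3 (0.95) and Bin2 (0.95), those most like Gclc were Coro2a (0.92), Rusc2 (0.89) and Kpna3 (0.89), and those most like Lpcat3 were Ttc9 (0.79), Txndc11 (0.76) and Slc7a5 (0.76).

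The balance of long and short transcripts moved with this pattern. It was expressed as the median log2 level, centred per gene over the libraries, of 2923 genes with a canonical transcript over 5000 bases minus that of 866 genes with one under 1000. The long set holds Acsl4, Gclm and Slc7a11 and the short set holds Gpx4. This index was 0.70 ± 0.31 (SD, n = 4) in Slc11a2KD libraries 1 to 4 and -0.90 ± 0.60 (SD, n = 6) in libraries 18 to 23. By group it was 0.37 ± 0.16 (SD, n = 6) in Control WT, 0.04 ± 0.35 (SD, n = 6) in Control APP/PS1, 0.29 ± 0.80 (SD, n = 5) in Slc11a2KD WT and -0.81 ± 0.83 (SD, n = 5) in Slc11a2KD APP/PS1. The library with the most Gpx4, Slc11a2KD APP/PS1 21, had the lowest index of the 22, at -1.76. Control APP/PS1 10, the library left out, had an index of -1.52 when scaled with all 23 samples, while the other Control libraries lay between -0.25 and 0.67.

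**Figure D3:**
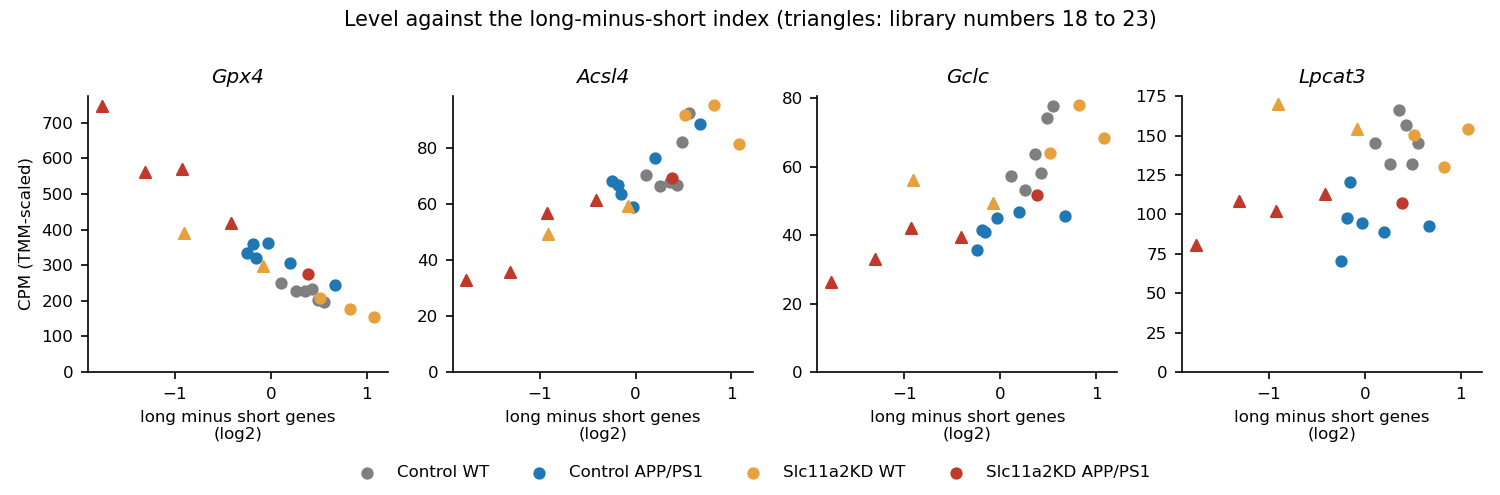
CPM of Gpx4, Acsl4, Gclc and Lpcat3 (vertical axes, starting at 0) against the long-minus-short index of each library (log2), coloured by group; triangles are library numbers 18 to 23. Gpx4 fell and Acsl4 and Gclc rose along the index across all groups, while every APP/PS1 library of Lpcat3 lay below every WT library.

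A correction of each library for exon length and GC content, added after these values were seen, changed the size of the differences unequally. The log2 fold change of Gpx4 between APP/PS1 and WT became 0.26 (SE 0.10, adjusted p = 0.082) in Control and 0.52 (SE 0.11, adjusted p = 0.0018) in Slc11a2KD mice, and between Slc11a2KD and Control APP/PS1 it became 0.28 (SE 0.10, adjusted p = 0.209). That of Acsl4 in the last comparison became -0.21 (SE 0.12, adjusted p = 0.364). Lpcat3 kept -0.70 (SE 0.10) in Control and -0.67 (SE 0.11) in Slc11a2KD mice, and Gclc -0.63 (SE 0.12) and -0.67 (SE 0.13), all 4 past the threshold in edgeR.

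Markers of microglia and of other cells also moved with the groups. The microglial list includes Tmem119, a homeostatic marker that the study reported as lower in APP/PS1 than in WT controls. Its sum therefore cannot tell fewer microglia from lower levels of such markers. The summed CPM of 11 microglial markers was between 42490 and 49378 in Control WT and between 34690 and 39489 in Control APP/PS1, and between 43757 and 50026 in Slc11a2KD WT and between 37390 and 42376 in Slc11a2KD APP/PS1. For 8 markers of border-associated macrophages it was between 450 and 942 and between 200 and 413 CPM in the Control groups, and between 464 and 1059 and between 236 and 425 in the Slc11a2KD groups. The WT and APP/PS1 ranges of both lists did not overlap in either treatment. The same held for 9 neuronal markers, with 19.2 to 41.8 and 11.3 to 16.4 CPM in the Control groups and 18.9 to 33.0 and 10.95 to 14.6 in the Slc11a2KD groups. The sum of 10 endothelial and mural markers was between 185 and 442 CPM in Control WT and between 120 and 165 in Control APP/PS1, and overlapped in the Slc11a2KD groups (170 to 362 and 106 to 188). Markers of oligodendrocytes (9 genes, medians of 1298 and 604 CPM) and of monocytes and neutrophils (9 genes, 171 and 63.8) were also lower in Control APP/PS1, with overlap, and no marker of these 6 lists was at 0 throughout a group. In the Slc11a2KD groups these medians were 2139 and 869 CPM, and 139 and 81.6, with overlap. The sum of 9 lymphocyte markers had medians of 19.2 CPM in Control WT and 14.7 in Control APP/PS1. It was 28.8 in Slc11a2KD WT, where Trbc2 and Cd3g were at 0 in every library, and 15.8 in Slc11a2KD APP/PS1. The genotypes overlapped in both treatments. The sum of 10 astrocyte markers, none at 0 throughout a group, had medians of 546 CPM in Control WT (132 to 714) and 428 in Control APP/PS1 (156 to 588), and lower ones of 162 in Slc11a2KD WT (131 to 503) and 119 in Slc11a2KD APP/PS1 (110 to 684), with all ranges overlapping. The sum of 12 choroid plexus epithelium markers had a median of 2.12 CPM in Control APP/PS1, where Kcnj13, Sostdc1, Clic6 and Cldn2 were at 0 in every library, and of 285 in Slc11a2KD APP/PS1, where it ranged from 2.30 to 499. In Control WT it was 2016 CPM in library 12, 1037 in library 15 and at most 5.34 in the other 4, and in Slc11a2KD WT it ranged from 10.6 to 814. With the mean log2 CPM of these 12 markers, not their sum, as a covariate, the change of Gpx4 between Slc11a2KD and Control APP/PS1 was 0.40 (SE 0.22, adjusted p = 0.737). That between APP/PS1 and WT in Control mice was 0.67 (SE 0.19, adjusted p = 0.0239), while without Control WT 12 and 15 the latter was 0.55 (SE 0.24, adjusted p = 0.205). The part of the other marker lists in the differences of genotype and knockdown was not tested.

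The wider pathway was described by 131 further genes in 7 lists, all of which were tested. In Control mice 18 were higher and 12 lower in APP/PS1, and in Slc11a2KD mice 28 were higher and 17 lower, with a median log2 fold change of 0.03 and 0.14. Over all genes tested, 5.99% were higher and 4.48% lower in Control, and 9.77% and 6.41% in Slc11a2KD mice, the shares beside which the counts of each list below are to be read. Between Slc11a2KD and Control 0 passed in either genotype (edgeR), with 5 at an unadjusted p under 0.05 in WT and 27 in APP/PS1, beside 5.92% and 20.6% of all genes. DESeq2 called 0 in WT and, in APP/PS1, 5 higher and 2 lower, beside 0.0533% and 3.09% of all genes. Between genotypes DESeq2 called 18 higher and 18 lower in Control mice, beside 6.6% and 6.96% of all genes. In Slc11a2KD mice it called 33 higher and 18 lower, beside 11.7% and 9.41%.

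**Figure D4:**
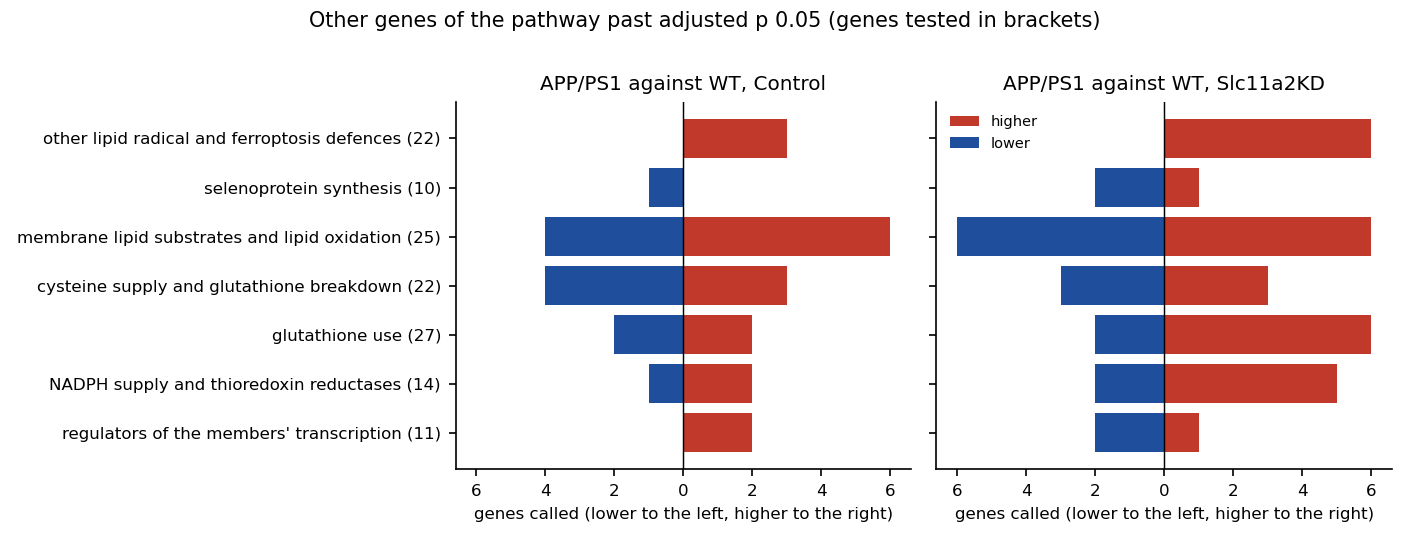
Number of genes of each pathway list past an adjusted p of 0.05 in APP/PS1 against WT, lower to the left and higher to the right, with the number tested in brackets. All called genes of the list of other ferroptosis defences were higher, 3 in Control and 6 in Slc11a2KD mice, among them Dhcr7 in both, whose enzyme consumes a radical-trapping sterol.

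Of 22 genes of other lipid radical defences, 3 were higher in Control APP/PS1 and 6 in Slc11a2KD APP/PS1, and 0 were lower. Prdx6, a peroxiredoxin that reduces phospholipid peroxides, was 93.4 ± 10.4 CPM in Control APP/PS1 and 54.1 ± 5.33 in Control WT (SD, n = 6 each; log2 fold change 0.79, adjusted p = 0.00248), and its change in Slc11a2KD mice was 1.02 (adjusted p = 0.000518). Dhcr7, listed here although its enzyme consumes the radical-trapping sterol 7-dehydrocholesterol, changed by 0.82 (adjusted p = 4.52e-05) and 0.96 (adjusted p = 2.43e-05). Coq7, a hydroxylase of ubiquinone synthesis, changed by 0.96 (adjusted p = 0.0103) and 1.76 (adjusted p = 8.46e-05). Of 10 genes of selenoprotein synthesis, on which GPX4 depends, 1 was lower in Control APP/PS1, Selenop, the secreted selenium carrier, with 4262 ± 795 CPM as against 6159 ± 444 in Control WT (SD, n = 6 each; log2 fold change -0.53, adjusted p = 0.00197). In Slc11a2KD mice Scly was higher and Sephs1 and Eefsec were lower.

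Of 25 genes of membrane lipid substrates and lipid oxidation, 6 were higher and 4 lower in Control APP/PS1, and 6 and 6 in Slc11a2KD APP/PS1. Lpcat2, which like Lpcat3 acylates lysophospholipids, fell from 1820 ± 135 CPM in Control WT to 995 ± 140 in Control APP/PS1 (SD, n = 6 each; log2 fold change -0.87, adjusted p = 1.54e-06). Cyb5r1, a reductase able to pass electrons to lipid peroxidation, rose by 0.80 in Control (adjusted p = 0.00127) and 1.09 in Slc11a2KD mice (adjusted p = 0.00014). Acsl5, a relative of Acsl4, rose by 0.43 in Control mice (adjusted p = 0.00204). Pebp1, a partner of lipoxygenases, rose by 1.20 (adjusted p = 0.000269) and Agps, of ether lipid synthesis, fell by 0.58 (adjusted p = 0.000616) in Slc11a2KD mice.

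Around the glutathione genes, 3 of 22 genes of cysteine supply and glutathione breakdown were higher and 4 lower in Control APP/PS1, and 3 and 3 in Slc11a2KD APP/PS1. Cndp2, a dipeptidase that releases cysteine from cysteinylglycine, rose by 0.69 in Control (adjusted p = 2.12e-06) and 0.46 in Slc11a2KD mice (adjusted p = 0.00118). Ggt5, of the gamma-glutamyl transferase family, changed by -0.99 (adjusted p = 0.000155) and -0.91 (adjusted p = 0.0011). Slc1a4, a neutral amino acid transporter, changed by -1.18 in Control (adjusted p = 0.000429) and the large neutral amino acid transporter Slc7a5 by -0.62 in Slc11a2KD mice (adjusted p = 0.00146). Of 27 genes of glutathione use, 2 were higher and 2 lower in Control APP/PS1, and 6 and 2 in Slc11a2KD APP/PS1. Gsto1, a glutathione transferase, rose from 39.9 ± 8.25 to 75.2 ± 15.0 CPM in Control mice (SD, n = 6 each; log2 fold change 0.91, adjusted p = 0.000189) and by 1.26 in Slc11a2KD mice (adjusted p = 1.49e-05).

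Of 14 genes of NADPH supply and thioredoxin reduction, 2 were higher and 1 lower in Control APP/PS1, and 5 and 2 in Slc11a2KD APP/PS1. Idh2, which makes NADPH in mitochondria, fell from 129 ± 7.94 CPM in Control WT to 70.1 ± 5.41 in Control APP/PS1 (SD, n = 6 each; log2 fold change -0.87, adjusted p = 2.21e-06) and changed by -0.64 in Slc11a2KD mice (adjusted p = 0.000429). Pgd, which makes it in the pentose phosphate pathway, rose by 0.52 (adjusted p = 0.000214) and 0.47 (adjusted p = 0.00155). Of 11 regulators of these genes, 2 were higher in Control APP/PS1, the stress-response genes Ddit3 (1.02, adjusted p = 0.0105) and Trib3 (1.54, adjusted p = 0.0339). In Slc11a2KD APP/PS1, Trib3 was higher (1.97, adjusted p = 0.0113), and Bach1, a repressor of antioxidant genes (-0.68, adjusted p = 0.00243), and Trp53 (-0.51, adjusted p = 0.0118) were lower.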

How the data were processed

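Bulk RNA-seq of CD11b+ hippocampal cells was used. The authors trimmed reads with Trim Galore 0.6.7 and aligned and counted them with STAR on mm39 (tools and build from the submitters' processing notes and the study's methods), and deposited raw counts per gene. Their normalized table was not used, and 0 sample columns were left unmapped. Control APP/PS1 10 was left out. The study removed 1 Control APP/PS1 sample as an outlier, which its main text does not number, and library 10 was taken to be that sample. On first principal components computed here library 10 lay 2.13 SD from its group's mean over 18865 genes and 0.644 SD over the 500 most variable genes. A gene was tested if 3 or more samples had 5 or more counts, with edgeR 4.0.16 (R 4.3.3; TMM, quasi-likelihood, all 4 groups in 1 fit), with Benjamini-Hochberg adjustment over all genes tested, and the steps were tested on simulated data. CPM used TMM-scaled library sizes. Ratios used counts plus 0.5 and exact permutation tests. Total counts were between 31128643 and 54872491. Alternatives were DESeq2 1.42.0, its size factors, limma voom 3.58.1, other gene filters, fits of the compared groups only, covariates, left-out libraries and a correction for length and GC content, the last added after seeing the data. Positions and exon lengths came from GENCODE on GRCm39. All 9 genes were named, and of each pathway list at most the 3 with the smallest adjusted p. Members and lists were chosen with earlier results of these data known. The sources call the samples biological replicates, and p-values measure the spread between them.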

Additional observations from a re-analysis of the deposited data

How the results depend on the processing

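The number of the 9 genes called between APP/PS1 and WT in Control mice, 2 with all groups in 1 edgeR fit, was 4 when only the compared groups were fitted (2 higher, Gpx4 and Aifm2) and 0 when the log2 fold change also had to exceed 1 in size. In Slc11a2KD mice it was 3, and 5 with DESeq2 and with limma voom, 1 with only the compared groups (Lpcat3, with Gclc and Gpx4 lost), 0 with libraries 18 to 23 alone, 1 with the fold limit, and between 3 and 5 when 1 library was left out. Between Slc11a2KD and Control APP/PS1 it was 0, and 1 with DESeq2 and between 0 and 2 when 1 library was left out. The share of all genes called higher and lower moved too. In Control mice it was 11.3% and 7.28% with only the compared groups. In Slc11a2KD mice it was 4.33% and 1.78% with only the compared groups, 13.2% and 10.4% with limma voom, and 1.68% and 0.41% with libraries 18 to 23 alone, so the counts of the 9 genes are to be read beside these shares. The other alternatives moved the counts of the 9 genes by at most 1.5 times. Lpcat3 and Gclc were lower in Control APP/PS1 past the threshold under all 11 alternatives run and all 12 fits without 1 library, with log2 fold changes between -0.72 and -0.57 and between -0.70 and -0.53. Gpx4 in Control mice passed in 5 of 11 alternatives, with values between 0.26 and 0.77. In Slc11a2KD mice it ran from 0.52 to 1.22 over 12 alternatives and passed in 10. No call made with all groups in 1 edgeR fit changed sign. Between Slc11a2KD and Control APP/PS1, where that fit called none of the 9, Gpx4 was called by DESeq2 (0.73) and ran down to -0.16 over 11 alternatives. The cause of these changes was not tested. The labels give every library its own number. No paired analysis was possible because the labels name no litter or cage, although the mice were littermates. Aifm2 and Slc7a11 had from 0 to 153 and from 29 to 460 counts per library, and their SE of 0.66 and 0.35 in Control mice limits what could be detected. How far low counts account for these SE was not tested.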

Other observations

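Genes that rise within minutes of tissue dissociation, such as Ier2, were summed as a check on cell isolation. The sum of 12 of them was between 6257 and 14349 CPM in Control WT and between 7570 and 13724 in Control APP/PS1. It was between 5630 and 12255 CPM in Slc11a2KD WT and between 6383 and 10798 in Slc11a2KD APP/PS1, so that all 4 groups overlapped. Their median log2 fold change between Slc11a2KD and Control was -0.23 in WT and -0.63 in APP/PS1, where 0 of the 12 passed in edgeR or DESeq2 and 0 and 2 had an unadjusted p under 0.05, beside 5.92% and 20.6% of all genes. Ier2 was the 1 gene of the 12 that passed between genotypes, with 665 ± 236 CPM in Slc11a2KD APP/PS1 and 399 ± 76.6 in Slc11a2KD WT (SD, n = 5 each; edgeR, log2 fold change 0.74, adjusted p = 0.035). Beside it, 9.77% of all genes were called higher there. Ier2 went against most of its list, as 3 of the 12 genes had a positive change in Slc11a2KD mice. The median log2 fold change of the list between genotypes was -0.33 in Slc11a2KD and 0.03 in Control mice.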
